A study of Lupinus albus with 12 samples.

Results

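The genes described here are the white lupin genes whose deposited protein name contains the words transcription factor MYB-HB-like. The name was matched in any case and no measured value was used, and 176 of the 23427 genes in the deposited table carry it. Of these, 167 are named Putative transcription factor MYB-HB-like family, 1 has the same name without the word putative, and 8 are named Putative sterol 14-alpha-demethylase transcription factor MYB-HB-like family.

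The plants were wildtype white lupin (*Lupinus albus*), a legume that forms cluster roots when phosphorus or iron is short. After 3 weeks of hydroponic growth with full nutrients, sucrose was added to the solution to a final 10 mM, and root sections of 5 to 6 cm with the tip were taken after 10, 15 or 20 min, or with no sucrose added (control). There were 3 libraries per time point and 12 in all, made from cDNA and read on Oxford Nanopore flow cells. The sample labels describe 3 plants for each replicate and the methods of the study 1, so it is not known how many plants stand behind a library. Each biological replication was read on its own flow cell, so the replicate number of a library is also its flow cell, and the plants and the flow cell cannot be told apart. Wherever 3 values are given for a time point below, they stand in the order of flow cells 1, 2 and 3.

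MYB proteins bind DNA through repeats of a short helical domain and form one of the largest groups of plant transcription factors. In Arabidopsis, members of the group switch on flavonoid and phenylpropanoid genes, set the fate of epidermal cells that make root hairs, keep circadian time and, in the case of PHR1, drive the response to phosphate shortage. The protein name used here does not separate these kinds, and 65 genes in the table carry another MYB name and stand outside it. The deposited annotation does not say which lupin gene is the counterpart of which Arabidopsis gene.

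The deposited table holds whole numbers, with library totals from 184071 to 407780, and the number of reads behind a value is unknown. Each value was divided by a size factor of its library (0.701 to 1.28, the median ratio of genes found in every library), and the quotient is called the scaled value. It is not divided by transcript length, so an order of genes by scaled value is not an order of transcripts per length. Between 13808 and 17143 genes were above 0 in a library. Transcripts with names typical of leaves varied widely between these root libraries. The summed scaled value of 26 chlorophyll a-b binding protein genes was 150 to 166 in control, 91.7 to 320 after 10 min, 91.1 to 240 after 15 min and 92.1 to 615 after 20 min, and that of 71 photosystem genes 163 to 2274 over all libraries. Their part in the values below was not tested. Expansin genes, which loosen cell walls in growing roots, summed to 153 to 452 over 35 genes.

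The MYB-HB-like genes were spread over all 25 chromosomes of the assembly CNRS_Lalb_1.0, with 2 to 12 on each and the most (12 each) on chromosomes 2 and 3. Their span on the chromosome had a median of 2.34 kb (0.473 to 15.2 kb), against 2.92 kb for all genes in the table. In 7 cases a pair of them lay within 50 kb of each other. Together they made up a small share of each library. Their deposited values summed to 533 to 932, or 0.167% to 0.327% of the library total. After scaling, the sums were 832, 859 and 570 in control, 648, 633 and 640 after 10 min, 725, 690 and 642 after 15 min and 761, 692 and 911 after 20 min, so the control libraries spanned most of the range of the sucrose libraries.

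Most of these genes were listed at low values in root sections. Only 51 of 176 (29.0%) were above 0 in all 12 libraries, against 38.2% of all genes, and 35 (19.9%) reached a value of 10 in any library, against 30.1% of all genes. The mean scaled value over 12 libraries was at least 1 for 96 genes, at least 5 for 26, at least 10 for 16 and at least 20 for 8. Its median was 1.23. A value of 1 or more in at least 3 libraries was required for the tests below, and 135 of the 176 passed it. The other 41 (23.3%, against 18.3% of all genes) were above 0 in 1 or 2 libraries and are not tested. The 10 genes with the highest means held 49.8% of the summed means of all 176.

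**Figure D1:**
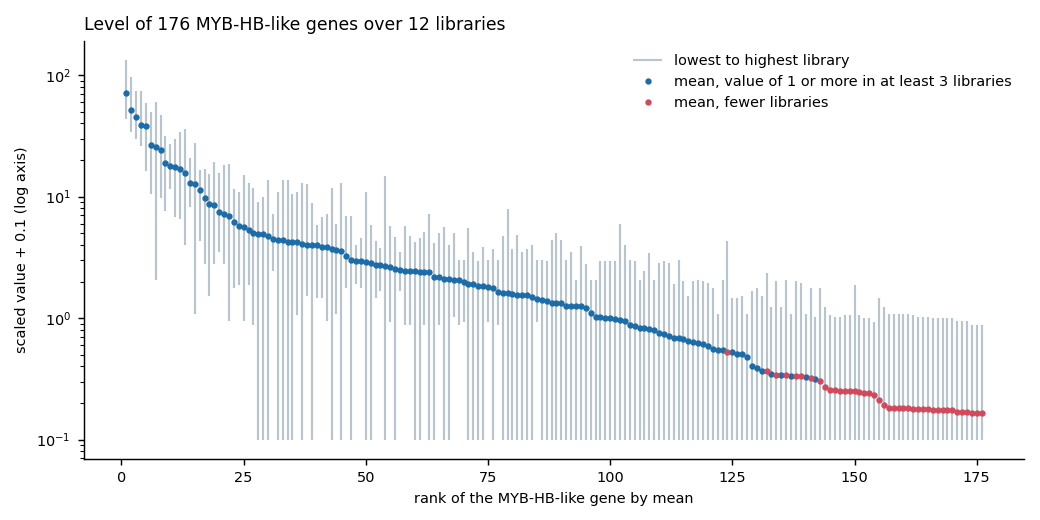
Mean scaled value of each of 176 MYB-HB-like genes over 12 libraries (points, y axis logarithmic with 0.1 added), ordered by rank on the x axis, with a line from the lowest to the highest library. Blue points are the 135 genes with a value of 1 or more in at least 3 libraries and red points the other 41. Only 26 means reach 5, and lines that end at the bottom mark genes listed at 0 in some library.

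Lalb_Chr10g0100691, annotated only with the nucleus as its location (chromosome 10, 15339436 to 15340813), had the highest mean, a scaled value of 71.1 ± 23.7 (SD, n = 12). Its deposited values were 68, 39 and 58 in control, 78, 87 and 74 after 10 min, 32, 75 and 67 after 15 min and 99, 78 and 137 after 20 min. The highest library was one of 20 min, but the scaled values of 20 min overlapped those of the control, and the log2 difference of 20 min minus control was 0.60 ± 0.34 (SE) with an unadjusted p of 0.1 in limma. The second, Lalb_Chr07g0182461 (DNA binding, chromosome 7, 2856386 to 2858919), averaged a scaled value of 51.4 ± 18.2 (SD, n = 12). The deposited values were 53, 68 and 46 in control, 41, 53 and 40 after 10 min, 48, 45 and 43 after 15 min and 68, 74 and 37 after 20 min. After scaling, control library 2 stood highest, and no sucrose time point had a p of 0.05 or less (limma, lowest unadjusted p of 0.142 after 10 min).

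Lalb_Chr17g0342781 (nucleus, chromosome 17) averaged a scaled value of 44.8, with 48.7 ± 22.5 in control, 38.3 ± 4.62 after 10 min, 36.0 ± 6.16 after 15 min and 56.1 ± 15.4 after 20 min (SD, n = 3 each). Lalb_Chr13g0298041 (DNA binding, chromosome 13) averaged 38.7, with 46.1 ± 24.5, 31.4 ± 8.07, 38.1 ± 8.79 and 39.2 ± 10.1 in the same order. In both genes the 3 control libraries lay about as far apart as the 9 sucrose libraries, or farther. Lalb_Chr23g0267321, which carries the term DNA binding and lies on chromosome 23 (1413833 to 1415093), averaged 38.1, and differed more between flow cells than between time points, as described further on. The next 4 were Lalb_Chr03g0025111 (nucleus, mean scaled value 26.7), Lalb_Chr09g0320681 (no term, 25.6), Lalb_Chr12g0201271 (DNA binding, 24.2) and Lalb_Chr05g0213451 (DNA binding, 18.7). Lalb_Chr09g0320681 was the least even of the 10, with deposited values from 2 to 77, both in the 20 min libraries, and a coefficient of variation of 63.5% over 12 libraries.

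The tenth, Lalb_Chr07g0184551, carries no term for DNA binding. Its deposited terms are Hsp70 protein binding, ribosome binding and folding of proteins during translation. It was the most even of the 10, with deposited values of 16, 8 and 19 in control, 28, 30 and 14 after 10 min, 12, 23 and 18 after 15 min and 21, 21 and 14 after 20 min, a mean scaled value of 17.7 and a coefficient of variation of 25.3%. Among the 10 genes, none had a p of 0.05 or less for any time point against control or for all sucrose libraries (limma, before adjustment). With the flow cell as a term, 1 of them did, Lalb_Chr12g0201271 after 10 min (log2 difference -0.83, unadjusted p of 0.0304).

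**Figure D2:**
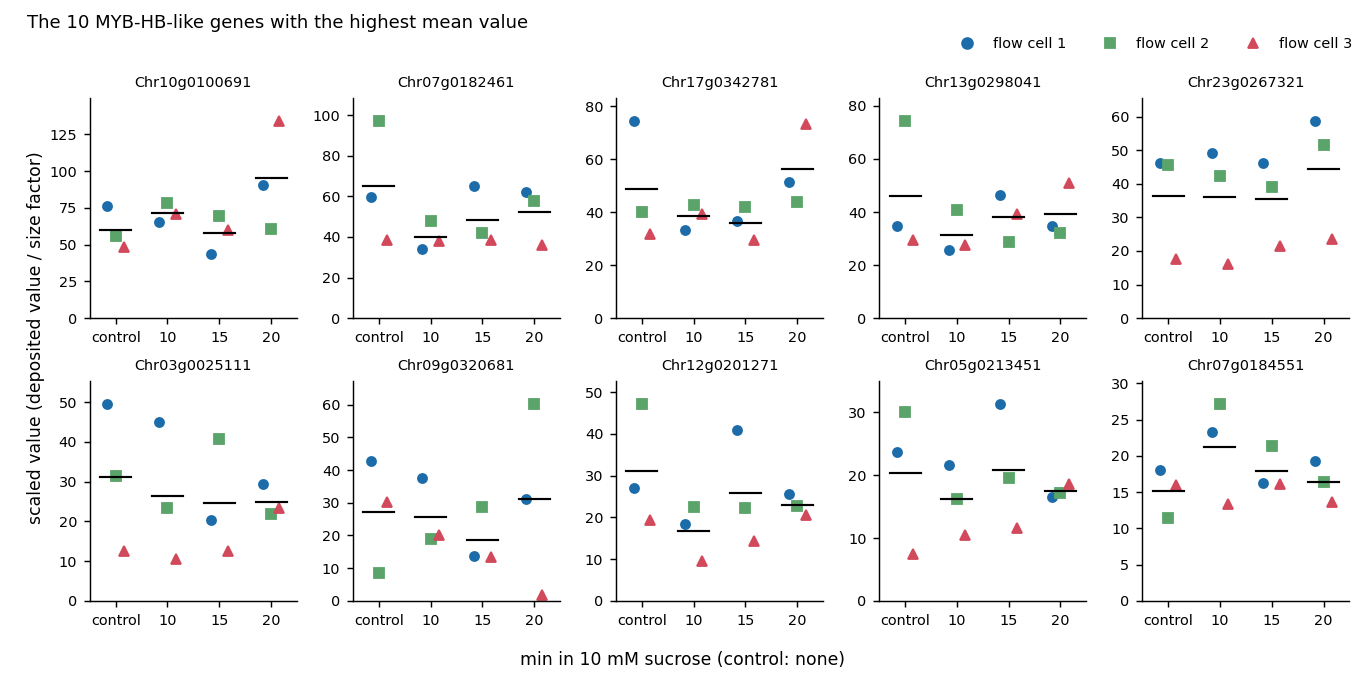
Scaled values (y axes, from 0) of the 10 MYB-HB-like genes with the highest means, in control and after 10, 15 and 20 min in 10 mM sucrose (x axes). Each symbol is a library, its shape and colour give the flow cell, and black lines are means of 3 libraries. The control symbols overlap the sucrose symbols in every panel, and in Chr23g0267321 the libraries of flow cell 3 (16.2 to 23.5) lie under all others.

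Few MYB-HB-like genes stood apart from the control within minutes of sucrose, and those that did were mostly listed at a few units. Each time point was compared with the control in limma on log2(scaled value + 1) over 19138 genes, and genes were called with the limits of the study, a log2 difference of 1.5 or more in either direction together with an unadjusted p of 0.05 or less. At 10 min no MYB-HB-like gene of 135 was called higher (0.423% of all genes were) and none lower (0.11% of all genes). At 15 min 1 was called higher (0.486% of all genes) and none lower (0.172%). At 20 min 1 was called higher (0.381%) and 1 lower (0.209%). A single gene of 135 is 0.741%, so these counts are near the shares of all genes. Leaving out 1 library moved them to 5 at most (higher after 20 min, without control library 1, which is 3.79% of the 132 genes then tested against 1.02% of all genes). After adjustment over all genes, no MYB-HB-like gene had a p of 0.05 or less in limma at any time point (lowest adjusted p = 1), and 1 gene of 19138 did at each. Without regard to size, the unadjusted p was 0.05 or less for 1 MYB-HB-like gene after 10 min (lower), 2 after 15 min (both higher) and 8 after 20 min (6 higher and 2 lower), against 2.06%, 2.4% and 2.89% of all genes.

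The median log2 difference of the 135 genes was -0.02 after 10 min, -0.04 after 15 min and 0.04 after 20 min, against 0.01, 0.01 and 0.04 for all genes tested. An exact permutation test of 3 libraries against 3 cannot give a p below 0.1, which is why single time points rest on limma, where the spread is shared between genes. Single differences ran between -1.20 and 0.79 after 10 min, between -1.30 and 1.97 after 15 min and between -1.73 and 1.55 after 20 min. How much the data could have shown is hard to read for low genes, because adding 1 before the logarithm understates their changes. Of all 135 genes, 69, 67 and 64 had a 95% interval of the log2 difference inside ±1.5 after 10, 15 and 20 min. Of the 26 genes with a mean scaled value of at least 5, some had a 95% interval of the log2 difference inside ±1.5. They numbered 10 after 10 min, 9 after 15 min and 12 after 20 min. For these a change of the size used for calls lay outside the interval, and for the rest it did not. Of all 6288 genes tested with such a mean, 62.0%, 63.0% and 59.2% had the interval inside ±1.5 at the same times. None of the 26 had an interval inside ±1 after 10 min. The p-values measure the spread between these libraries, and in root sections fewer cells of a type and less RNA per cell cannot be told apart.

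**Figure D3:**
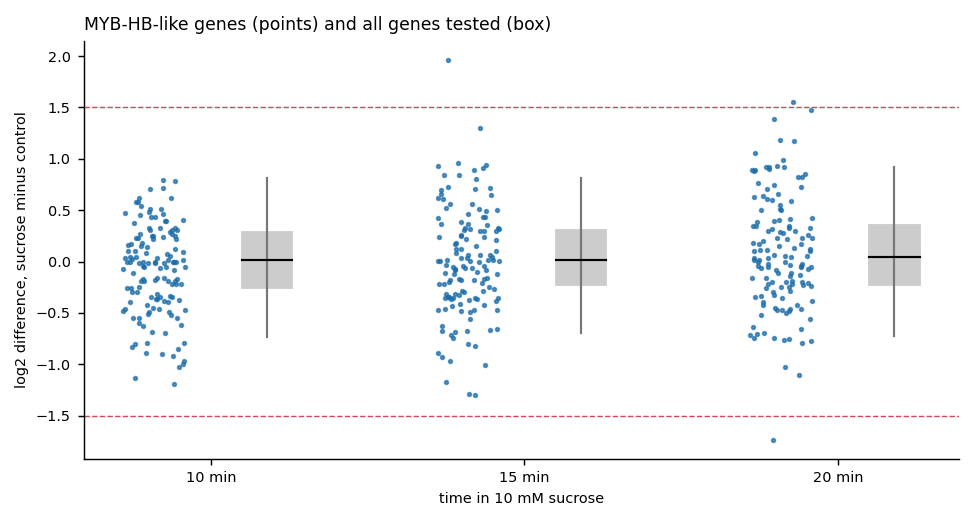
Log2 difference of each sucrose time point minus control (y axis) for 135 MYB-HB-like genes (blue points, spread sideways) and, in grey, for all 19138 genes tested (box from the 25th to the 75th percentile, black line at the median, thin line from the 5th to the 95th). Dashed lines are at ±1.5. A single point lies beyond them after 15 min (1.97), and after 20 min 1 lies above (1.55) and 1 below (-1.73).

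The gene called higher after 15 min was Lalb_Chr03g0029071, whose deposited annotation gives only the nucleus (chromosome 3, 2565524 to 2567057). Its deposited values were 1, 1 and 0 in control, 1, 0 and 3 after 10 min, 8, 5 and 4 after 15 min and 6, 2 and 1 after 20 min. All libraries of 15 min were above all control and 10 min libraries, while those of 20 min overlapped the libraries of every other time point. The log2 difference of 15 min minus control was 1.97 ± 0.63 (SE, limma, unadjusted p of 0.00896, adjusted p = 1), and it was 2.48, 1.22 and 2.20 within flow cells 1, 2 and 3. At 20 min the difference was 0.89 ± 0.63 with an unadjusted p of 0.182 (limma). The unadjusted p after 15 min stayed under 0.05 whichever library was left out, but with 5 added before the logarithm in place of 1 the difference was 0.91, under the limit of size. Its neighbour 3.48 kb away, Lalb_Chr03g0029061, had 0, 0 and 0 in control, 1, 0 and 0 after 10 min, 1, 0 and 2 after 15 min and 2, 0 and 0 after 20 min, too low for a comparison of the pair.

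The gene called higher after 20 min was Lalb_Chr18g0050421 (DNA binding, chromosome 18, 9662522 to 9664185). No control library and no library of 15 min had a value above 0, and those of 10 min had 0, 1 and 0 and those of 20 min 1, 3 and 3. The signal thus stands on 7 units of the deposited value after 20 min, in 3 of 3 libraries. The unadjusted p in limma was 0.000899, the smallest of any MYB-HB-like gene at a time point, with an adjusted p of 1. Because the control is listed at 0 no fold is given, and the log2 difference depends on the added value, with 2.26 for 0.5 added and 0.49 for 5 added. Without 20 min library 2 or 3 the difference was 1.44 and 1.34, each under the limit of size, with an unadjusted p of 0.0044 and 0.00477 in limma.

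The gene called lower after 20 min was Lalb_Chr19g0137001 (nucleus, chromosome 19, 16418337 to 16420309). In the deposited table it had 5, 9 and 2 in control, 4, 3 and 4 after 10 min, 2, 3 and 3 after 15 min and 3, 1 and 0 after 20 min. The means of scaled values were 6.72 ± 5.66 in control, 3.29 ± 0.556 after 10 min, 2.73 ± 0.051 after 15 min and 1.18 ± 1.42 after 20 min (SD, n = 3 each). Control library 3 lay under some sucrose libraries, so the groups overlapped. The log2 difference of 20 min minus control was -1.73 ± 0.59 (SE, limma, unadjusted p of 0.0125, adjusted p = 1). It was -1.18 (unadjusted p of 0.0646) without control library 2 and -1.28 (unadjusted p of 0.0595) without 20 min library 3, and neither passes.

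Over the 9 sucrose libraries together against the 3 of control, 2 MYB-HB-like genes were higher (1.97% of all genes were) and 1 lower (0.909% of all genes) at an unadjusted p of 0.05 or less in limma. Without control library 3 the count lower was 10 of 132 (7.58%, against 2.07% of all genes in that fit), and without 15 min library 1 the count higher was 6 of 135 (4.44%, against 2.59%). None passed adjustment (lowest adjusted p = 1 after rounding, limma), and 1 gene of 19138 did. The one that was lower, Lalb_Chr14g0375341, carries the terms DNA binding and zinc ion binding (chromosome 14, 14083076 to 14085288). Its deposited values were 5, 4 and 7 in control, 2, 2 and 4 after 10 min, 2, 4 and 5 after 15 min and 3, 4 and 1 after 20 min. After scaling, the control libraries lay very close together (5.73 ± 0.122, SD, n = 3), and every sucrose library was below every control library. No other MYB-HB-like gene tested had its sucrose and control libraries apart in this way, and 0.512% of all genes did. The log2 difference over all sucrose libraries was -0.90 ± 0.31 (SE, limma, unadjusted p of 0.0143). At single time points it was -1.03 after 10 min (unadjusted p of 0.0202), -0.56 after 15 min (unadjusted p of 0.172) and -1.11 after 20 min (unadjusted p of 0.0137), all limma and all with an adjusted p of 1. It was lower in 3 of 3 flow cells, with differences of -0.99, -0.82 and -0.88 in flow cells 1, 2 and 3. The result of 10 min did not pass without 10 min library 1 or 2, nor that of 20 min without 20 min library 3 (unadjusted p of 0.0739, 0.0661 and 0.0605). Without scaling of the libraries the difference over all sucrose libraries was -0.71 with an unadjusted p of 0.0749, which does not pass.

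Of the pair that were higher, Lalb_Chr03g0028831 has no GO term (chromosome 3, 2434438 to 2437462). It had deposited values of 17, 5 and 8 in control, 25, 16 and 13 after 10 min, 13, 32 and 13 after 15 min and 23, 38 and 21 after 20 min. The means of its scaled values were 10.99 ± 7.05 in control, 15.9 ± 4.40 after 10 min, 19.7 ± 9.20 after 15 min and 23.8 ± 5.13 after 20 min (SD, n = 3 each). The means thus stood in the order of time, while control library 1 lay among the sucrose libraries. The log2 difference over all sucrose libraries was 0.88 ± 0.36 (SE, limma, unadjusted p of 0.032; exact permutation p = 0.0364, two-sided, over the 220 ways to assign 3 of 12 libraries without regard to flow cell). It was 0.05, 1.59 and 1.00 within flow cells 1, 2 and 3. At 20 min alone it was 1.18 ± 0.44 (SE) with an unadjusted p of 0.021 in limma, which rose to 0.0727 to 0.0772 without control library 2 or 3 or 20 min library 2. Leaving out any of control libraries 2 and 3, 10 min library 1, 15 min library 2 or 20 min library 2 took the p over all sucrose libraries above 0.05, up to 0.143.

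The other, Lalb_Chr14g0367941 (nucleus, chromosome 14, 9712273 to 9714568), had deposited values of 12, 4 and 5 in control, 9, 12 and 13 after 10 min, 7, 13 and 15 after 15 min and 17, 16 and 17 after 20 min. Its means, too, stood in the order of time, with scaled values of 7.80 ± 4.99 in control, 10.3 ± 2.51 after 10 min, 11.7 ± 1.98 after 15 min and 14.9 ± 2.14 after 20 min (SD, n = 3 each). The log2 difference over all sucrose libraries was 0.71 ± 0.32 (SE, limma, unadjusted p of 0.0457), with an exact permutation p = 0.0409. This gene and Lalb_Chr03g0028831 were picked by their limma p in this same comparison, so the exact p of each adds no separate support. Within flow cells 1, 2 and 3 the log2 difference of Lalb_Chr14g0367941 was -0.35, 0.93 and 1.54. The direction in flow cell 1 was thus the opposite of that in the other 2. Without flow cell 3 the difference was 0.33 (unadjusted p of 0.368), without control library 3 it was 0.41 (unadjusted p of 0.245), and without control library 2 it was 0.59 (unadjusted p of 0.15). With the flow cell as a block its unadjusted p was 0.0501. Of the 9 sucrose libraries, leaving out 10 min library 2 or 3, 15 min library 2 or 3 or 20 min library 1 or 3 also took p above 0.05, with differences of 0.66 to 0.70. At 20 min alone the log2 difference from control was 0.99, and 0.19, 1.01 and 1.76 within flow cells 1, 2 and 3. Its unadjusted p in limma was under 0.05, and 0.0291 with the flow cell as a term.

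The F test over the 4 time points asks whether a gene differed between any of them. It had an unadjusted p of 0.05 or less in limma for 5 MYB-HB-like genes of 135 (1.91% of all genes), and no adjusted p under 1 after rounding. These were Lalb_Chr18g0050421 (unadjusted p of 0.00246), Lalb_Chr18g0054251 (unadjusted p of 0.0207), Lalb_Chr22g0349721 (unadjusted p of 0.0252), Lalb_Chr03g0029071 (unadjusted p of 0.0335) and Lalb_Chr14g0375341 (unadjusted p of 0.0485, and 0.0557 with the flow cell as a term). Lalb_Chr22g0349721 (DNA binding, chromosome 22, 181748 to 183279) had a course unlike the others. The values deposited for it were 5, 3 and 1 in control, 1, 2 and 1 after 10 min, 1, 1 and 1 after 15 min and 5, 6 and 4 after 20 min, low in all libraries of 10 and 15 min and high in all of 20 min. Its log2 difference against control was -0.89 after 10 min (unadjusted p of 0.0741), -0.97 after 15 min (unadjusted p of 0.0557) and 0.43 after 20 min (unadjusted p of 0.368), none of which passes in limma, and control library 3 was as low as the libraries of 10 and 15 min. With the flow cell as a term the result of 15 min passed (unadjusted p of 0.0385) and that of 10 min did not (unadjusted p of 0.0526). Lalb_Chr18g0054251 (no GO term) was listed at 0 in all control and 10 min libraries, at 0, 1 and 1 after 15 min and at 1, 1 and 1 after 20 min. At 20 min its unadjusted p was 0.00963 in limma, on a value of a single unit in each library, and without flow cell 3 it was 0.0716.

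When the flow cell was added to the model, 4 MYB-HB-like genes in place of 1 were lower over all sucrose libraries (1.73% of all genes in that fit) and 8 in place of 5 changed over the 4 time points (3.41%). Lalb_Chr12g0199231 (nucleus, chromosome 12, 1844057 to 1845850) was one of those added. Its deposited values were 6, 9 and 2 in control, 5, 4 and 0 after 10 min, 3, 3 and 0 after 15 min and 6, 6 and 2 after 20 min, lower at 10 and 15 min than in control within each flow cell. The log2 difference was -1.20 after 10 min and -1.30 after 15 min, with unadjusted p of 0.00948 and 0.00592 in that fit (limma), against 0.167 and 0.136 without the term. Over the 3 time points, all sucrose libraries and the F test, 20 values of MYB-HB-like genes passed an unadjusted p of 0.05 only with the term and 2 only without it. The genes passing numbered 4 after 10 min (3.79% of all genes in that fit), 9 after 15 min (4.32%) and 10 after 20 min (5.05%), in place of 1, 2 and 8. Lalb_Chr19g0137001 and Lalb_Chr18g0050421 passed over all sucrose libraries (unadjusted p of 0.0413 and 0.046), Lalb_Chr19g0137001 and Lalb_Chr06g0161101 in the F test (0.0491 and 0.0334), and Lalb_Chr03g0028831 and Lalb_Chr03g0029061 after 15 min (0.0492 each). With the limit of size of 1.5 added, the counts of MYB-HB-like genes called at single time points were the same in both fits. The term leaves the log2 differences unchanged, so it could not bring a further gene to that limit.

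The remaining genes with an unadjusted p of 0.05 or less at a time point were all listed at values of 5 or lower. Lalb_Chr06g0161101 (no GO term, chosen for mention after its values were seen) had 0, 0 and 1 in control, 0, 0 and 1 after 10 min, 0, 3 and 2 after 15 min and 3, 1 and 5 after 20 min, with a log2 difference of 1.47 ± 0.58 (SE, limma, unadjusted p of 0.0266) after 20 min. Lalb_Chr21g0305011 (no GO term, chosen likewise) had 0, 1 and 0 in control, 1, 1 and 0 after 10 min, 0, 2 and 3 after 15 min and 2, 2 and 3 after 20 min, with 1.19 ± 0.54 (unadjusted p of 0.0489) after 20 min. Both were higher in the 20 min libraries than in most control libraries. The first did not pass without control library 1 or 2 or without 20 min library 1 or 3 (1.08 without the last), and the second did not pass without control library 1 or 3, 10 min library 1 or 2, 15 min library 2 or any library of 20 min (0.97 without control library 3). Lalb_Chr25g0284331 (DNA-binding transcription factor activity) had 2, 1 and 1 after 15 min against 0, 0 and 1 in control, with 0.96 ± 0.43 (unadjusted p of 0.0458) in limma, and it did not pass without control library 1 or 2, 10 min library 2 or 3, 15 min library 1 (0.66) or 20 min library 1 or 2. Next in order after 10 min stood Lalb_Chr09g0323771 (nucleus, unadjusted p of 0.059) and Lalb_Chr04g0251171 (telomeric DNA binding, unadjusted p of 0.0664), and neither passed. The first passed with the flow cell as a term (unadjusted p of 0.0278). The 20 min libraries were also compared with those of 10 min and 15 min, and 15 min with 10 min. The unadjusted p was 0.05 or less for 4, 3 and 2 MYB-HB-like genes of 135, against 1.66%, 1.71% and 1.35% of all genes, and none passed adjustment in limma (lowest adjusted p = 1).

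**Figure D4:**
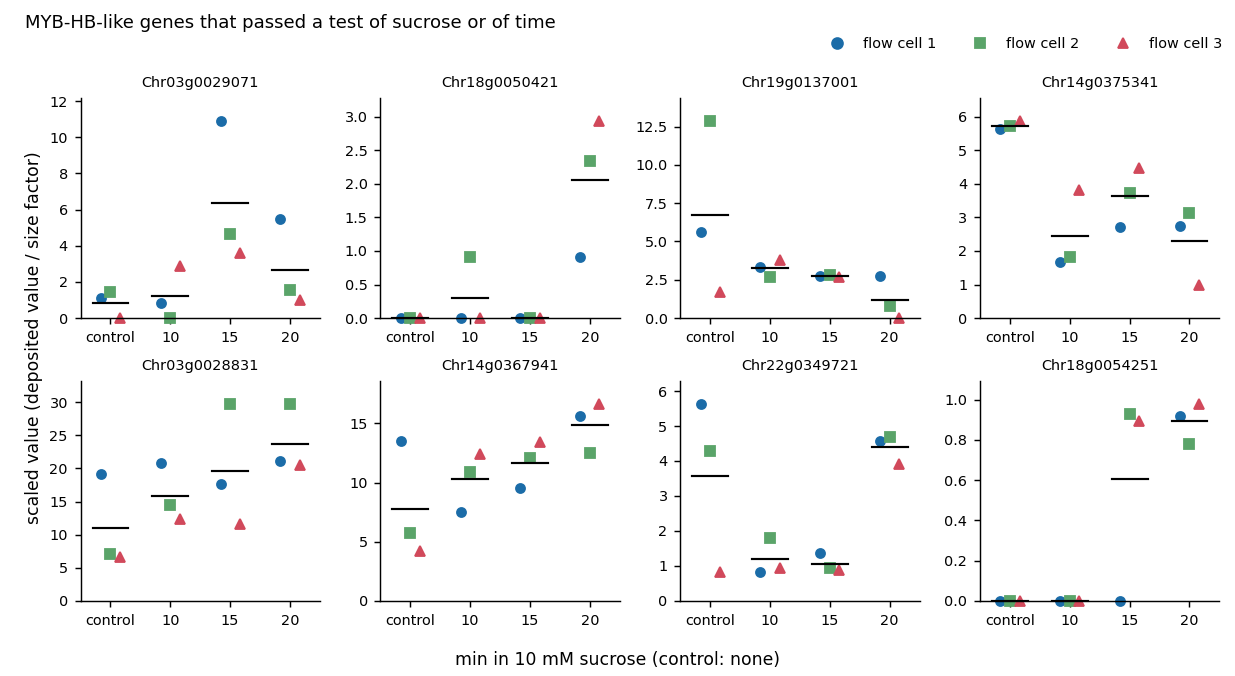
Scaled values (y axes, from 0) of 8 MYB-HB-like genes with an unadjusted p of 0.05 or less in a test of sucrose or of time, in control and after 10, 15 and 20 min in 10 mM sucrose (x axes). Each symbol is a library, its shape and colour give the flow cell, and black lines are means of 3 libraries. All sucrose libraries lie under all control libraries in Chr14g0375341, and in the other panels control and sucrose symbols overlap at 1 or more time points.

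Differences between flow cells, which carry the biological replications, passed adjustment where those with sucrose did not. In a model with time point and flow cell, 18 MYB-HB-like genes of 135 had an adjusted p of 0.05 or less between flow cells in limma (11.1% of all genes did). Flow cell 3 had the highest mean for 9 of them and the lowest for 9, whereas over all 2123 genes that differed it was highest for 71.0% and lowest for 27.8%. In 7 genes all 4 libraries of flow cell 3 lay above all others, in 4 all lay below, and in 7 they overlapped. The count of 18 fell to 6 to 11 without control library 3, any 10 min library, 15 min library 3 or 20 min library 1 or 2 (4.44% to 8.33% of those tested), where the share of all genes fell too, to 4.59% to 9.2%. The smallest p belonged to Lalb_Chr10g0100921 (DNA binding, chromosome 10, 15522609 to 15530100). It had 12, 11, 13 and 5 in the flow cell 3 libraries of control, 10, 15 and 20 min, and 0 or 1 in every library of flow cells 1 and 2. Its mean scaled value was 12.3 times as high in flow cell 3 as in the others (adjusted p = 0.00275, limma).

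Lalb_Chr23g0267321, among the 10 with the highest means, went the other way. It had 21, 17, 24 and 24 in the flow cell 3 libraries of control, 10, 15 and 20 min, against 41, 59, 34 and 64 in flow cell 1 and 32, 47, 42 and 66 in flow cell 2. The mean scaled value in flow cell 3 was 0.416 of that in the others (adjusted p = 0.00348, limma). Within flow cells 1, 2 and 3 the log2 difference from control was 0.09, -0.10 and -0.11 after 10 min, 0.00, -0.22 and 0.27 after 15 min and 0.34, 0.17 and 0.40 after 20 min. The 20 min value was thus above control in 3 of 3 flow cells. Its unadjusted p in limma was 0.207 with the flow cell as a term and 0.586 without it. Lalb_Chr12g0199231 (0.163 of the others, adjusted p = 0.00639) and Lalb_Chr02g0150111 (nucleus, 0.309 of the others, adjusted p = 0.0102) were also low in flow cell 3. Lalb_Chr05g0215541, one of the genes with the sterol demethylase name, was high there, with 14, 8, 6 and 14 against 0 to 3 in the libraries of flow cells 1 and 2 (6.72 times as high, adjusted p = 0.00954, limma). None of the 18 was among the genes with an unadjusted p of 0.05 or less for sucrose or for time in the fit without the flow cell term. In that fit the spread between flow cells counts against such genes. With the term, Lalb_Chr12g0199231 passed after 10 and 15 min (unadjusted p of 0.00948 and 0.00592, limma). Lalb_Chr21g0313321 and Lalb_Chr23g0272751 passed after 15 min (0.015 and 0.014), and Lalb_Chr18g0058511 over all sucrose libraries (0.0463).

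**Figure D5:**
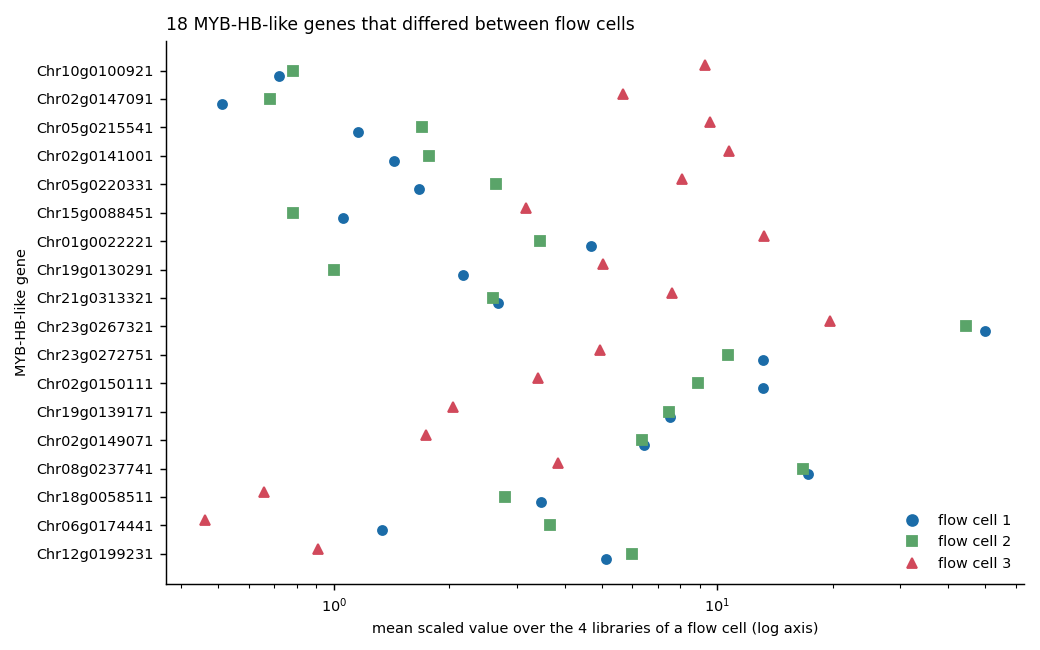
Mean scaled value over the 4 libraries of each flow cell (x axis, logarithmic) for the 18 MYB-HB-like genes that differed between flow cells (y axis), ordered by the ratio of flow cell 3 to the others. Blue circles, green squares and red triangles are flow cells 1, 2 and 3. The red triangle is the rightmost symbol in the upper 9 genes, up to 12.3 times the others, and the leftmost in the lower 9.

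The genes were also sorted by the terms deposited with them, a grouping made after the values were available. Each gene was placed in a single group by a fixed order. The sterol demethylase name and the terms of the smaller groups below came first. DNA-binding transcription factor activity, DNA binding and the nucleus followed. The nucleus was the only term of 46 genes (34 tested), and 31 had no term (22 tested). The groups of DNA binding and of DNA-binding transcription factor activity held 35 each (30 and 27 tested). The group of DNA-binding transcription factor activity had low values, with a highest mean scaled value of 4.30. The nucleus, DNA binding and no-term groups reached 71.1, 51.4 and 25.6. Genes placed in other groups also carry the term DNA-binding transcription factor activity. Some are in the group of sequence-specific DNA binding, whose highest mean scaled value was 12.9. The median log2 difference after 20 min was 0.02 for nucleus only, -0.06 for DNA binding, 0.18 for DNA-binding transcription factor activity and 0.09 for no term, against 0.04 for all genes tested. Of the 6 genes with an unadjusted p of 0.05 or less and a higher value after 20 min, 4 had no GO term, 1 carried the nucleus alone and 1 DNA binding.

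The 8 genes with the sterol demethylase name carry terms for DNA binding and for methyltransferase activity, and 6 of them were tested. Their median log2 difference was -0.01 after 10 min, -0.02 after 15 min and 0.62 after 20 min, and none had a p of 0.05 or less at any time point (limma). Lalb_Chr10g0098331 had deposited values of 4, 1 and 1 in control, 3, 1 and 5 after 10 min, 2, 5 and 8 after 15 min and 4, 9 and 5 after 20 min, with a log2 difference of 1.06 ± 0.53 (SE, limma, unadjusted p of 0.0689) after 20 min. This name group also held 2 of the genes high in flow cell 3, Lalb_Chr05g0215541 and Lalb_Chr05g0220331 (3.75 times the others, adjusted p = 0.0198, limma).

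The smaller groups held 1 to 7 genes each. The 2 genes annotated to the Prp19 complex, part of the splicing machinery, had values of 0 to 3 in every library, and their median log2 difference lay between -0.07 and 0.00 at the 3 time points. One of them, Lalb_Chr18g0044021, is the only MYB-HB-like gene whose listed coordinates coincide with those of other annotated genes. Those genes have names beginning with Lalb_Chr00 and not Lalb_Chr18, so a shared span on the chromosome is not established. Of 5 genes with telomeric DNA binding 4 were tested, with deposited values of 5 or lower in every library and median log2 differences of -0.40, -0.12 and 0.12 after 10, 15 and 20 min. Of 7 genes with sequence-specific DNA binding 4 were tested, with medians of -0.65, -0.23 and -0.27, and none had an unadjusted p of 0.05 or less (limma). Of these 7 only Lalb_Chr03g0026861 had a mean scaled value over 10. It had 14, 12 and 12 in control, 11, 9 and 12 after 10 min, 15, 12 and 11 after 15 min and 12, 13 and 21 after 20 min, and control and sucrose libraries overlapped. The single genes annotated to the NuA4 histone acetyltransferase complex and to abaxial cell fate reached a value of 1 at most. The 4 genes with metal ion binding had median log2 differences of -0.73, -0.11 and -0.66 after 10, 15 and 20 min, and 1 of them was lower at an unadjusted p of 0.05 or less after 10 and after 20 min. They included Lalb_Chr14g0375341, described above, and Lalb_Chr05g0217371, with 10, 25 and 21 in control, 8, 9 and 18 after 10 min, 15, 6 and 29 after 15 min and 7, 5 and 27 after 20 min.

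Of the 7 pairs of genes within 50 kb, both members were tested in 4. On chromosome 18, Lalb_Chr18g0057551 and Lalb_Chr18g0057561 lie 2.64 kb apart and both carry DNA-binding transcription factor activity. The first had 0 to 4 and the second 2 to 5 in every library, and neither had a p of 0.05 or less for sucrose (limma). On chromosome 20, Lalb_Chr20g0119701 and Lalb_Chr20g0119711 lie 4.63 kb apart with the same term, and had 0 to 4 and 1 to 5. On chromosome 2, Lalb_Chr02g0149041 and Lalb_Chr02g0149071 lie 14.6 kb apart. Lalb_Chr02g0149041 had 2 to 7 in all 12 libraries, and Lalb_Chr02g0149071 had 6, 1, 0 and 1 in the flow cell 3 libraries of control, 10, 15 and 20 min against 3 to 9 elsewhere (adjusted p = 0.0426 between flow cells, limma). The fourth pair, on chromosome 3, is that of Lalb_Chr03g0029071.

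Genes outside the name rule gave the setting. Of all 19138 genes tested, 0.423%, 0.486% and 0.381% were called higher after 10, 15 and 20 min, and 0.11%, 0.172% and 0.209% lower. Of 53 genes tested with another MYB name, none was called in either direction at any time point. Of 58 genes with names of flavonoid synthesis, 1 was called higher after 20 min (Lalb_Chr08g0239161) and none lower, and of 86 with names of phosphate transport, SPX domains or acid phosphatases 1 was called higher after 20 min (Lalb_Chr08g0237131). In Arabidopsis, some basic helix-loop-helix proteins pair with MYB proteins in the control of flavonoid genes and of epidermal cells. Of 154 genes named as basic helix-loop-helix proteins of any kind, 6 were called higher after 10 min, 7 after 15 min and 4 after 20 min. None was called lower. The MYB-HB-like genes had 0, 1 and 1 called higher of 135 at the same times, near the shares of all genes. The difference between the 2 families was not tested. The list of basic helix-loop-helix genes was chosen with earlier results of these data known.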

How the data were processed

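Gene tables of 12 root libraries (3 each of control and of 10, 15 and 20 min in sucrose) were used. According to the methods of the study, reads were trimmed with Pychopper, mapped with Minimap2 to CNRS_Lalb_1.0 and counted with Salmon. The values the authors deposited are named CPM but are whole numbers with unequal library sums, so they were treated as a score of unknown depth, without a count model. The deposited DESeq2 comparison of the authors (log2 fold changes and p-values) was not used.

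Values were divided by size factors, 1 was added, and log2 values were fitted in limma 3.58.1 (R 4.3.3) with a variance trend, 4 groups and no block, over genes that reached 1 in 3 or more libraries. Adjustment was Benjamini-Hochberg over 19138 genes. The scale of log2(value + 1) understates changes of low genes. Alternatives were no scaling, scaling by total, 0.5 or 5 added, other filters, each library left out, flow cell 3 left out and a replicate block. The fit was tested on simulated data without flow cell effects, with changes placed only in genes with a mean scaled value of at least 20. As 8 MYB-HB-like genes reach that mean, the test does not bear on most of them.

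Replicate numbers mark flow cells, per the methods of the study. Libraries of flow cells 1, 2 and 3 deviated together with median correlations of 0.289, 0.257 and 0.539 (lowest -0.01, -0.04 and 0.293).

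The genes and lists were chosen with earlier results of these data known. Genes were named if they passed the limits, had one of the 5 smallest p in a comparison, had sucrose and control apart, had one of the 10 highest means, or lay within 50 kb of another. Lalb_Chr06g0161101, Lalb_Chr21g0305011, Lalb_Chr10g0098331, Lalb_Chr05g0220331, Lalb_Chr03g0026861 and Lalb_Chr05g0217371 were named after their values were seen. Sorting by protein sequence and closest copies was not done because no sequences were used here, so near-identical copies may share reads. No gene name contained Casparian. Leaf names also included the small subunit of ribulose bisphosphate carboxylase (0 to 135 summed over 4 genes), and root names 3 aquaporins (642 to 6258). Coordinates are from the reference annotation of the same assembly. Python 3.11.15, numpy 2.4.6, pandas 2.3.3 and matplotlib 3.10.9 were used.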

Additional observations from a re-analysis of the deposited data

How the results depend on the processing

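Counts of MYB-HB-like genes were small and moved with the processing, and the cause was not tested. At 20 min, 1 was called higher and 1 lower; without scaling these were 3 and 0, with 5 added 0 and 0, with a mean scaled value of at least 5 required 0 and 0, and without flow cell 3 0 and 3. Scaling by the library total and 0.5 added gave 2 higher. At 15 min, 1 higher became 0 with 5 added or the stricter filter and 2 without flow cell 3, which also gave 1 lower at 10 min. Over all sucrose libraries, 2 higher and 1 lower became 5 and 0 without scaling, 1 higher with scaling by total, 1 and 2 with 5 added, 4 higher with no filter, 0 lower with the stricter filter, and 1 and 6 without flow cell 3. The replicate block gave 4 lower and 8 in place of 5 changing over time, flow cell 3 left out 8, and the stricter filter 0. The shares of all genes moved as well. Without flow cell 3 they were 0.734% lower at 20 min (0.209% with it), 3.12% lower over all sucrose libraries (0.909%) and 5.47% changing over time (1.91%). Without scaling they were 0.695% higher at 20 min (0.381% with it) and 2.9% higher over all sucrose libraries (1.97%). With 5 added, 0.0366% were higher and 0.0523% lower at 20 min. With the stricter filter 6 of 26 (23.1%, against 19.6% of all genes) differed between flow cells, in place of 18 of 135. With the replicate block 20 values of these genes passed an unadjusted p of 0.05 that had not, and 2 no longer passed, Lalb_Chr14g0367941 over all sucrose libraries (0.0501) and Lalb_Chr14g0375341 over time (0.0557).

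With each library left out in turn, the count higher ranged from 0 to 5 at 20 min (5 without control 1, 2 without control 2 or 3, 0 without 20 min 3) and from 1 to 2 at 15 min (2 without control 3 or 15 min 1). The count lower ranged from 0 to 1 at 10 min (1 without control 1 or 2), from 0 to 2 at 15 min (2 without control 3, 1 without control 2 or 15 min 3) and from 0 to 2 at 20 min (0 without control 2, 2 without 20 min 3). Over all sucrose libraries it ranged from 0 to 6 higher (6 without 15 min 1, 4 without control 1, 0 without 15 min 2, and 1 without control 2 or 3, 15 min 3 or 20 min 2 or 3) and from 1 to 10 lower (10 without control 3, 3 without control 2, 2 without control 1 or 20 min 1). Genes changing over time ranged from 3 to 7 (3 without 10 min 1, 15 min 2 or 20 min 1). Genes differing between flow cells ranged from 6 to 18, with 11 or fewer without any of control 3, all 10 min libraries, 15 min 3 and 20 min 1 or 2. The shares of all genes moved in these fits as well. They ranged from 0.35% to 1.02% higher at 20 min, and over all sucrose libraries from 1.38% to 2.75% higher and from 0.74% to 2.07% lower. Shares changing over time ranged from 1.7% to 2.87%, and those differing between flow cells from 4.59% to 13.2%.

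Of 270 alternative values for the 14 differences with p of 0.05 or less, 207 kept direction and threshold, 63 lost the threshold and 0 reversed. Of 146 values of named genes with p above 0.05, 42 fell to 0.05 or less under 1 or more alternatives, down to 0.00118 for Lalb_Chr22g0349721 after 15 min, 0.00599 for Lalb_Chr05g0211601 after 15 min and 0.00656 for Lalb_Chr09g0323771 after 10 min. Without scaling the median of all genes was 0.19, 0.06 and 0.26 at 10, 15 and 20 min, against 0.01, 0.01 and 0.04 with it, and at 20 min 133 genes were called higher and 25 lower without it, against 73 and 40 with it. Values of a few units limit what can be seen for most of these genes.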
